A study of Mus musculus with 49 samples.

Results

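The genes described here encode 10 RNA-binding proteins of stress granules and of closely related complexes, namely the granule scaffold proteins G3bp1, G3bp2 and Caprin1, the TIA proteins Tia1 and Tial1, the FET proteins Ewsr1 and Taf15, and the translation regulators Atxn2, Pabpc1 and Fmr1. They were chosen by gene symbol, and all 10 were found among the 45252 genes of the table and passed the filter on low counts that left 18220 genes for testing. Bulk RNA-seq had been made from the neocortex of 49 mice, aged 28.5 weeks, of mixed C57BL/6J x C3H/HeJ descent. Bigenic rNLS8 mice express human TDP-43 with a defective nuclear localization signal (hTDP-43ΔNLS, tetO-driven) in neurons under the tTA protein, whose transgene uses the neurofilament heavy chain promoter NEFH, once doxycycline is taken out of the chow. Doxycycline was withdrawn from every mouse at 25.5 weeks, so that brains were taken 3 weeks later. The ctrl-PBS group held 17 monogenic littermates, which carry the tetO-hTDP43ΔNLS allele without the NEFH-tTA driver and received PBS, and rNLS8 mice are heterozygous for both. The TDP-PBS group held 10 rNLS8 mice that received PBS, the TDP-10+12 group 10 rNLS8 mice immunized with the TDP-43 peptides 10 and 12 from the glycine-rich C-terminal domain, and the TDP-15 group 12 rNLS8 mice immunized with peptide 15, which carries the C-terminal serines that are phosphorylated in disease. The peptides had been coupled to ovalbumin and were given at a dose of 40 µg, 5 times before and 1 time after induction. The first dose was given at 8 weeks of age. The injections held a CpG oligonucleotide and an alum adjuvant, and in the PBS groups PBS took the place of the peptide conjugates. Each library came from 1 mouse, and the set analysed here had no immunized monogenic mice, so that immunization could only be compared within rNLS8.

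Stress granules are cytoplasmic condensates of untranslated mRNA and proteins that assemble when translation initiation stalls, most often after phosphorylation of the initiation factor eIF2α. G3BP proteins bind the released mRNA and drive condensation, CAPRIN1 binds G3BP and favours assembly, and the TIA proteins, poly(A)-binding protein, ataxin-2 and FMRP are recruited with the stalled mRNA. TDP-43 itself enters stress granules, and several of these genes (TIA1, ATXN2, EWSR1, TAF15) have been discussed as genetic or pathological partners of TDP-43 in amyotrophic lateral sclerosis and frontotemporal dementia. mRNA counts describe how much of each transcript the tissue held and not whether granules were present.

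Annotated start sites are shown first, 1 for each member that passed the test below in any rNLS8 group and has a start window in the reference used here, so that the sequence around those starts can be seen. The windows run from 100 bases before to 30 bases after the annotated start and were taken from RefSeq on GRCm38.p6, 5′ to 3′ on the gene's strand. Capitals mark matches, on either strand, to CCAAT (NF-Y), CACGTG (E-box), TGACG (the core of the ATF/CREB site) or TATAAA.
Taf15, chr11:83473008-83473137, plus strand: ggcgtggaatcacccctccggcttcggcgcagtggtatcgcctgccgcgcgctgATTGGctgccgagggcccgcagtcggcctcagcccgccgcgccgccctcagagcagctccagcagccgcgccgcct
Tial1, chr7:128461644-128461773, minus strand: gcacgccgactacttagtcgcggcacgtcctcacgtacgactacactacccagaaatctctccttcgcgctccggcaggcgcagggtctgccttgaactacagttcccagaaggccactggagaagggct
G3bp2, chr5:92137696-92137825, minus strand: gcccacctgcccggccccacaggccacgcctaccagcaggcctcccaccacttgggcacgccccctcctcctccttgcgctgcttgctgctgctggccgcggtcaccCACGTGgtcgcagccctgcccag
Tia1, chr6:86404119-86404248, plus strand: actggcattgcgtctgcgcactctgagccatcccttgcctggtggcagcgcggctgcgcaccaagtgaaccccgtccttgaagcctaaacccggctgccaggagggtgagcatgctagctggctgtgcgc
Atxn2, chr5:121711509-121711638, plus strand: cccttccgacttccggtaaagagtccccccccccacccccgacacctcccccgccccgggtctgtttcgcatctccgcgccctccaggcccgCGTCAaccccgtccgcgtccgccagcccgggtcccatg
G3bp1, chr11:55469652-55469781, plus strand: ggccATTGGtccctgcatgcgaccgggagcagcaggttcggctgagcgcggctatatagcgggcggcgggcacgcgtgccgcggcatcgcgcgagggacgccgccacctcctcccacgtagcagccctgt

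Start windows were given for 9 of the 10 members, 14 windows in all, since G3bp2, Tial1, Atxn2 and Fmr1 have several annotated starts. Pabpc1 was not among them. In the full windows of 300 bases the 4 motifs were counted among the 14 member windows and among all 32851 windows of the reference. CCAAT was found in 3 member windows and in 37.4% of all windows, CACGTG in 4 member windows and 7.15% of all, TGACG in 3 and 20.8%, and TATAAA in 2 and 13.6%. The 4 windows with CACGTG belonged to 3 genes, G3bp2, Atxn2 and Fmr1, because the 2 Fmr1 windows overlap. A CCAAT followed 9 bases later by CCACG, the arrangement of the ER stress response element, was present in 0 of the 14 member windows and in 0.119% of all. CpG content ranged widely among the members, from 2 CG dinucleotides in the second Atxn2 window to 43 in Caprin1, while the median of all windows was 7. These counts describe the letters in annotated windows and not binding by any factor.

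Levels are given in CPM, counts relative to the library size after scaling by the trimmed mean of M-values (TMM). The libraries held 17775738 to 21033608 counts, with a median of 19955601. Tardbp, which encodes mouse TDP-43, was lower in TDP-PBS (118.2 CPM) than in ctrl-PBS (145.8 CPM), with a log2 fold change of -0.30. The sources used here do not say whether the Tardbp count includes transgene reads. Gfap, the astrocyte filament gene, was at 122.5 CPM in ctrl-PBS and 380.9 CPM in TDP-PBS. Of 10 neuronal markers, 7 fell in each rNLS8 group and 1, 0 and 1 rose in TDP-PBS, TDP-10+12 and TDP-15, and their summed level was 10943 to 14612 CPM in ctrl-PBS and 7661 to 10294 CPM in the 3 rNLS8 groups, so that the ranges did not overlap. Of 10 microglial markers, 8 rose in each rNLS8 group and 0, 1 and 1 fell in TDP-PBS, TDP-10+12 and TDP-15. Their sums were 295 to 355 CPM in ctrl-PBS, 392.2 to 596.5 CPM in TDP-PBS, 307.6 to 551.2 CPM in TDP-10+12 and 328.9 to 784.4 CPM in TDP-15, so that TDP-PBS was separated from ctrl-PBS and the immunized groups overlapped with it. Among the other lists in TDP-PBS, 1 of 8 astrocyte markers rose and 2 fell, 1 of 7 oligodendrocyte markers rose, 4 of 6 olfactory bulb markers fell, 1 of 1 tested T cell marker (Cd4) fell, and 0 of 4 oligodendrocyte precursor, 0 of 5 endothelial, 0 of 5 choroid plexus and 0 of 5 striatal markers passed the threshold. In TDP-10+12, 3 of 5 choroid plexus and 2 of 4 oligodendrocyte precursor markers rose and 0 of 6 olfactory bulb markers passed, and in TDP-15, 1 choroid plexus marker rose and 2 of 5 endothelial and 2 of 5 striatal markers fell. No list was at 0 in any group. In 13 libraries, 3 of ctrl-PBS and 10 of rNLS8, the summed choroid plexus or olfactory bulb markers exceeded the median library more than 5-fold. The part of these shifts in cell makeup in the member genes was not tested, and in bulk tissue fewer cells of a type and less RNA per cell cannot be told apart.

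Per kilobase of exon, the control neocortex held most of Ewsr1 and Pabpc1 and least of Fmr1 and Tia1. In ctrl-PBS, the level was 29.3 ± 1.59 CPM per kb for Ewsr1 (SD, n = 17), 27.9 ± 1.97 for Pabpc1, 20.98 ± 1.24 for G3bp2, 16.4 ± 1.30 for Caprin1 and 14.7 ± 1.06 for Atxn2. The other 5 genes were lower, with 7.03 ± 0.57 CPM per kb for Tial1, 5.89 ± 0.51 for G3bp1, 4.87 ± 0.62 for Taf15, 3.77 ± 0.35 for Fmr1 and 3.76 ± 0.33 for Tia1. The ranges of Ewsr1 and Pabpc1 overlapped, as did those of Caprin1 and Atxn2 and of each neighbouring pair below Atxn2, whereas Pabpc1 and G3bp2, G3bp2 and Caprin1, and Atxn2 and Tial1 were separated. In each of the 3 rNLS8 groups Pabpc1 came first, at 39.6, 38.4 and 37.9 CPM per kb in TDP-PBS, TDP-10+12 and TDP-15, with all its mice above all values of Ewsr1 (28.7, 28.2 and 28.1 CPM per kb). Lengths were unions of annotated exons, so that long exons used by few transcripts lower a gene's level per kb, and Tia1 had the longest union with 15.75 kb.

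Whether the mRNA of these genes differed in rNLS8 mice was asked by comparing each rNLS8 group with ctrl-PBS. The controls also lack the NEFH-tTA driver, so that effects of hTDP-43ΔNLS expression and of the driver cannot be told apart. Pabpc1, the cytoplasmic poly(A)-binding protein, rose by 41.9% in TDP-PBS, and Atxn2 rose by 9.82%. Tial1, Taf15, Tia1 and G3bp2 fell, by 14.9, 15.1, 9.39 and 8.53%, and G3bp1, Caprin1, Ewsr1 and Fmr1 did not pass the threshold. A gene was called changed at an adjusted p under 0.05 in the quasi-likelihood test of edgeR, after Benjamini-Hochberg correction across the 18220 genes. In TDP-PBS, 2 members were thus higher and 4 lower, where 21.9% of all genes tested were higher and 21.6% lower. In TDP-10+12, 1 member was higher (background 20.8%) and 2 were lower (20.0%), and in TDP-15, 2 were higher (23.6%) and 5 lower (23.2%). The median log2 fold change of the members was -0.06, -0.05 and -0.08 in the 3 groups, with a median over all genes of 0.00 in each. Nothing particular to the 10 genes can be read from these counts, and the 3 comparisons share their 17 control mice. Scaling by library totals alone, in place of TMM, left 2 members higher and 1 lower in TDP-PBS, 2 higher and 0 lower in TDP-10+12, and 2 higher and 2 lower in TDP-15. It also moved the share of higher genes among all calls from 50.4, 51.0 and 50.5% to 65.9, 69.0 and 68.6%. Of all genes tested, 44.8, 43.1 and 48.9% were called with library totals, in place of 43.5, 40.8 and 46.9%.

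**Figure D1:**
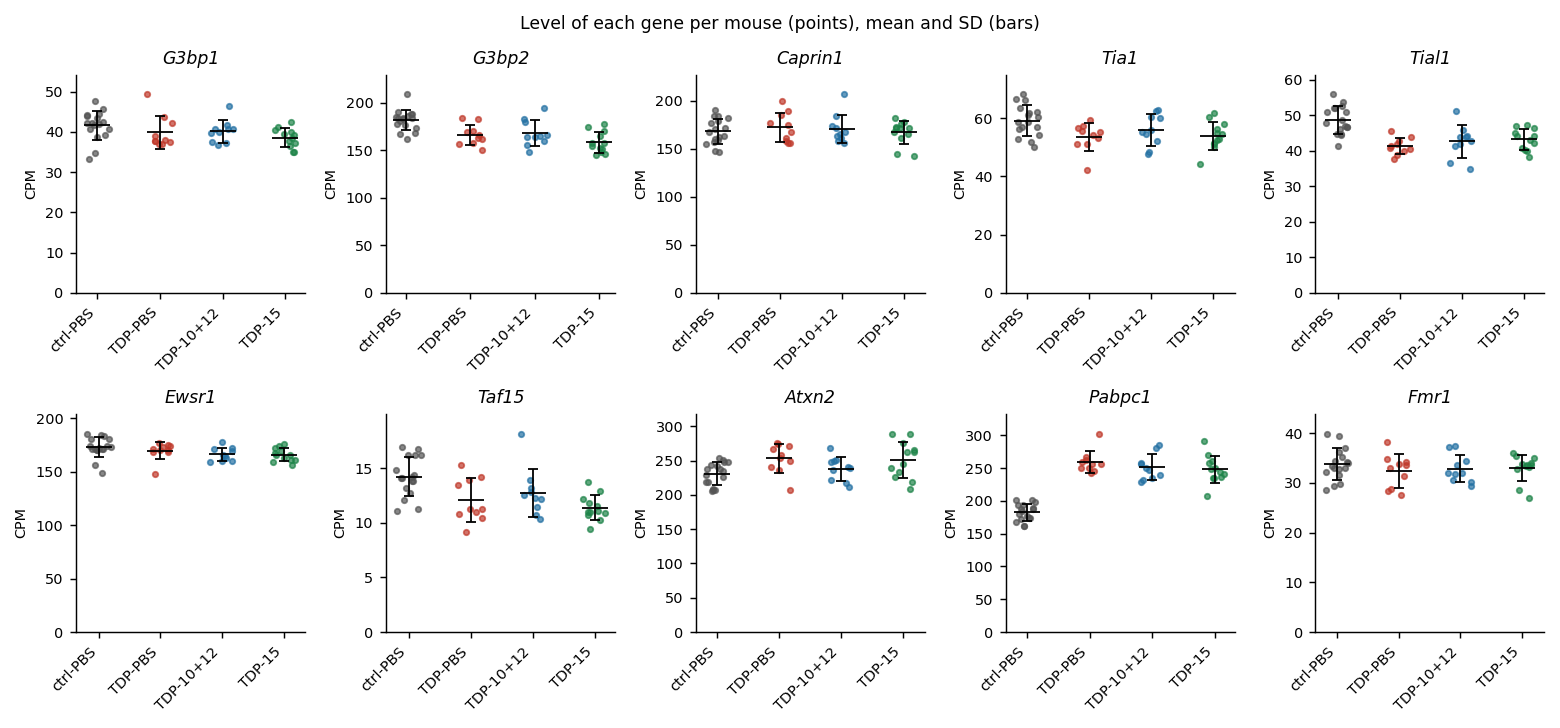
Level of each of the 10 genes in every mouse, in CPM (counts relative to the TMM-scaled library size), by group (ctrl-PBS n = 17, TDP-PBS n = 10, TDP-10+12 n = 10, TDP-15 n = 12), with the bar at the group mean and error bars of 1 SD. Pabpc1 is the gene with all 32 rNLS8 mice above all control mice, at 208.1 to 302.5 CPM against 161.1 to 202.0 CPM.

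G3BP1 and G3BP2, paralogous scaffold proteins on which granule condensation depends, lie on chr11:55469657-55500888 and chr5:92052145-92137725 of GRCm38.p6. G3bp2 ranged from 161.5 to 208.8 CPM (median 184.1) in ctrl-PBS, from 149.8 to 184.0 (164.6) in TDP-PBS, from 148.0 to 194.0 (164.7) in TDP-10+12 and from 145.3 to 177.7 (156.0) in TDP-15. The groups overlapped, with 15 of 32 rNLS8 mice lower than all controls. Over all genes tested, the median was 1 such mouse and the 90th percentile was 17. G3bp2 fell in all 3 rNLS8 groups, with log2 fold changes of -0.13 (SE 0.0402, adjusted p = 0.00748), -0.11 (SE 0.0402, adjusted p = 0.0211) and -0.20 (SE 0.0381, adjusted p = 2.38e-05). The call in TDP-10+12 was lost without any of 8 mice (ctrl-PBS mouse 84 or TDP-10+12 mouse 51, 130, 200, 266, 277, 313 or 337), with log2 fold changes of -0.10 to -0.08, and without the 13 libraries high in markers of neighbouring tissue (-0.05, adjusted p = 0.432). With library totals alone as the scaling, the changes were -0.06 (adjusted p = 0.272), -0.04 (adjusted p = 0.515) and -0.11 (adjusted p = 0.0189), and the last of these passed.

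G3bp1 was the lower of both paralogs, at 33.3 to 47.8 CPM (median 42.1) in ctrl-PBS, 36.9 to 49.3 (37.9) in TDP-PBS, 36.8 to 46.5 (40.3) in TDP-10+12 and 35.0 to 42.5 (38.8) in TDP-15. No rNLS8 mouse lay below the control range and 1 lay above it. G3bp1 fell in TDP-15 (log2 fold change -0.11, SE 0.0445, adjusted p = 0.0388), while its values in TDP-PBS (-0.06, 95% confidence interval -0.16 to 0.03) and TDP-10+12 (-0.05, -0.15 to 0.04) did not pass. The call in TDP-15 was lost in 31 of the 49 refits that each left out 1 mouse of any group (-0.11 to -0.09, adjusted p of 0.0509 to 0.0849 in edgeR), and under 5 of 11 alternative settings. Among these, library totals as the scaling moved it furthest (-0.03, adjusted p = 0.654), and with sex in the model it was -0.11 (adjusted p = 0.0523). The 31 refits included some without a mouse of TDP-PBS or TDP-10+12, which are not in this comparison. Without TDP-PBS mouse 42, for example, the value was -0.099 (edgeR, adjusted p = 0.0619). Each refit also repeated the scaling and the shared estimate of spread, and their part in the lost calls was not tested.

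Caprin1, whose product binds G3BP and the fragile X protein, lies on chr2:103762945-103797669. Its level was 146.6 to 190.2 CPM in ctrl-PBS and 142.7 to 206.5 CPM over the 32 rNLS8 mice, with 2 mice above and 2 below the control range. The log2 fold changes were 0.04 (95% confidence interval -0.06 to 0.13) in TDP-PBS, 0.02 (-0.07 to 0.12) in TDP-10+12 and -0.01 (-0.10 to 0.08) in TDP-15. None passed the threshold.

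TIA1 and TIAL1 (TIAR) are paralogous RNA-binding proteins with prion-like tails that repress translation and regulate splicing, encoded on chr6:86404203-86433405 and chr7:128439772-128461726. Tial1 ranged from 41.3 to 55.9 CPM (median 47.8) in ctrl-PBS, from 37.7 to 45.6 (40.9) in TDP-PBS, from 34.9 to 51.3 (43.2) in TDP-10+12 and from 38.2 to 47.2 (43.6) in TDP-15. In 12 of 32 rNLS8 mice the level was below every control (median 1 and 90th percentile 17 over all genes). Tial1 fell in all 3 groups, with log2 fold changes of -0.23 (SE 0.0470, adjusted p = 5.12e-05), -0.19 (SE 0.0469, adjusted p = 0.00098) and -0.17 (SE 0.0442, adjusted p = 0.0014), and each call held in all 49 refits without 1 mouse. With library totals alone as the scaling, the fold changes were -0.11 and -0.09 in the immunized groups and did not pass (adjusted p = 0.0728 and 0.149).

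Tia1 ranged from 50.2 to 68.2 CPM (median 58.6) in ctrl-PBS, from 42.1 to 59.3 (54.8) in TDP-PBS, from 47.6 to 62.9 (55.7) in TDP-10+12 and from 44.3 to 61.9 (53.8) in TDP-15. The groups overlapped, and 5 rNLS8 mice were below every control mouse (median 1 and 90th percentile 17 over all genes). Tia1 fell in TDP-PBS (log2 fold change -0.14, SE 0.0526, adjusted p = 0.0241) and TDP-15 (-0.13, SE 0.0496, adjusted p = 0.0252) and was at -0.08 (adjusted p = 0.233) in TDP-10+12. The TDP-PBS call was lost without TDP-PBS mouse 124 (-0.10, adjusted p = 0.124), TDP-PBS mouse 196 (-0.13) or ctrl-PBS mouse 41 or 71 (both -0.12), and the TDP-15 call without ctrl-PBS mouse 41, 71 or 84 or TDP-15 mouse 126 (-0.12 to -0.11). Both calls were also lost without the 13 libraries high in neighbouring-tissue markers (-0.12, adjusted p = 0.13, and -0.14, adjusted p = 0.0549) and with library totals as the scaling (-0.07, adjusted p = 0.313, and -0.05, adjusted p = 0.485). With no filter on low counts, the value in TDP-PBS was -0.14 (adjusted p = 0.0501).

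EWSR1 and TAF15 are FET proteins, nuclear RNA-binding proteins with low-complexity domains that can move into stress granules, and their genes lie on chr11:5069687-5099107 and chr11:83473073-83506743. Taf15 was the gene with the lowest CPM of the 10, at 11.1 to 16.9 CPM (median 14.1) in ctrl-PBS, 9.16 to 15.3 (11.2) in TDP-PBS, 10.3 to 18.1 (12.4) in TDP-10+12 and 9.41 to 13.7 (11.1) in TDP-15. In 13 of 32 rNLS8 mice it was below all controls (median 1 and 90th percentile 17 over all genes). In 1, of TDP-10+12, it was above them. Taf15 fell in TDP-PBS (log2 fold change -0.24, SE 0.0792, adjusted p = 0.013) and TDP-15 (-0.32, SE 0.075, adjusted p = 0.000339), and was at -0.16 (SE 0.0788, adjusted p = 0.106) in TDP-10+12. That last value passed without TDP-10+12 mouse 301 (-0.22, adjusted p = 0.0183) and in limma-voom (-0.20, adjusted p = 0.0209), and was -0.08 (adjusted p = 0.436) with library totals as the scaling, and the TDP-PBS call was lost without TDP-PBS mouse 233 (-0.19, adjusted p = 0.0529) or without the libraries high in neighbouring-tissue markers (-0.22, adjusted p = 0.0619), and with library totals as the scaling (-0.17, adjusted p = 0.089).

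Ewsr1 stayed within a narrow range, at 149.1 to 185.7 CPM in ctrl-PBS and 148.0 to 177.7 CPM in rNLS8. Only 1 rNLS8 mouse was outside the control range. Its log2 fold changes were -0.03 (95% confidence interval -0.09 to 0.03), -0.06 (-0.12 to 0.0052) and -0.06 (-0.12 to -0.0017) in TDP-PBS, TDP-10+12 and TDP-15, with adjusted p values of 0.496, 0.141 and 0.0853.

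Ataxin-2 binds poly(A)-binding protein and polyribosomes, and poly(A)-binding protein 1 coats the mRNA tail and supports initiation. The Pabpc1 gene lies on chr15:36595658-36609581. Pabpc1 ranged from 161.1 to 202.0 CPM (median 184.3) in ctrl-PBS, from 242.6 to 302.5 (256.1) in TDP-PBS, from 228.9 to 285.4 (248.5) in TDP-10+12 and from 208.1 to 291.0 (246.3) in TDP-15. All 32 rNLS8 mice were above all 17 controls, as for 1.16% of the genes tested (212 genes). Pabpc1 rose in all 3 groups, with log2 fold changes of 0.50 (SE 0.0427, adjusted p = 3.55e-14), 0.46 (SE 0.0427, adjusted p = 8.23e-13) and 0.44 (SE 0.0406, adjusted p = 3.53e-13). Over all 11 alternative settings run on all genes it stayed between 0.44 and 0.57, and it held in every refit without 1 mouse. Of the close copies of Pabpc1 that the table lists, Pabpc2 and Pabpc6 had at most 0.269 and 0.231 CPM in any mouse, and how reads common to such copies were assigned is not given.

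Atxn2, on chr5:121711609-121814950, ranged from 206.3 to 253.4 CPM (median 234.2) in ctrl-PBS, from 207.1 to 276.0 (255.3) in TDP-PBS, from 211.8 to 268.2 (239.8) in TDP-10+12 and from 209.1 to 289.1 (253.8) in TDP-15. In 12 of 32 rNLS8 mice it was above every control, 5 of them in TDP-PBS, 6 in TDP-15 and 1 in TDP-10+12. Over all genes, the median was 1 such mouse and the 90th percentile was 17. Atxn2 rose in TDP-PBS (log2 fold change 0.14, SE 0.0486, adjusted p = 0.0204) and TDP-15 (0.12, SE 0.0461, adjusted p = 0.0236) and was at 0.05 (adjusted p = 0.468) in TDP-10+12. The TDP-15 call was lost without TDP-15 mouse 59 or 261 (both 0.10) and without the libraries high in neighbouring-tissue markers (0.12, adjusted p = 0.0541) or with no filter on low counts (0.12, adjusted p = 0.0583). With library totals alone as the scaling, Atxn2 also passed in TDP-10+12 (0.12, adjusted p = 0.0108) and was at 0.21 (adjusted p = 1.04e-05) in TDP-15.

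Fmr1, on chrX:68678536-68717963, encodes FMRP, a repressor of translation at synapses. It was at 28.5 to 39.9 CPM in ctrl-PBS and 26.9 to 38.3 CPM in rNLS8, with 3 mice below the controls. The log2 fold changes of -0.06 (95% confidence interval -0.17 to 0.05), -0.04 (-0.15 to 0.07) and -0.03 (-0.13 to 0.07) did not pass.

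**Figure D2:**
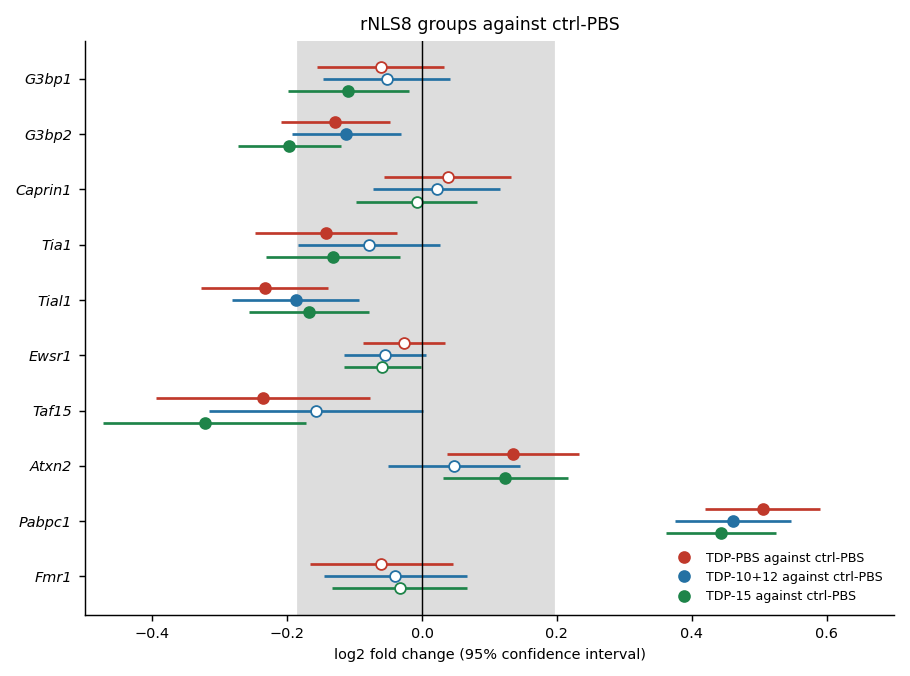
Log2 fold change of each gene in the 3 rNLS8 groups against ctrl-PBS, with 95% confidence intervals from the edgeR fit, filled points where the adjusted p is under 0.05 and a grey band from the 25th to the 75th percentile of all genes. Pabpc1 lies between 0.44 and 0.50, and the other 9 genes lie between -0.32 and 0.14.

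Immunization was compared within rNLS8. Among the 10 genes, 0 passed the threshold in TDP-10+12 against TDP-PBS, TDP-15 against TDP-PBS or TDP-10+12 against TDP-15, and 0 had an unadjusted p under 0.05 in any of the 3 (quasi-likelihood test of edgeR). The same was true of all genes tested, with 0% called in each of the 3 comparisons, and 953, 552 and 1244 genes at an unadjusted p under 0.05. DESeq2 also called 0 genes in each, and limma-voom called 2, 0 and 0. A fit of only the 2 groups compared called 2 genes in TDP-10+12 against TDP-15. With no filter on low counts, 1 gene was called in TDP-10+12 against TDP-PBS and 1 in TDP-10+12 against TDP-15. None of these was a member. The log2 differences of the members ran from -0.09 to 0.16. The smallest p values belonged to G3bp2 and Taf15 in TDP-10+12 against TDP-15. G3bp2 had a mean of 168.0 CPM in TDP-10+12 and 158.5 CPM in TDP-15 (log2 difference 0.08, 95% confidence interval -0.0018 to 0.17, p = 0.0549, adjusted p = 0.754 in the quasi-likelihood test of edgeR). Taf15 had means of 12.8 and 11.4 CPM (0.16, 95% confidence interval -0.0054 to 0.33, p = 0.0575, adjusted p = 0.755 in the same test). For Pabpc1, the difference from TDP-PBS was -0.04 (95% confidence interval -0.14 to 0.05) in TDP-10+12 and -0.06 (-0.16 to 0.03) in TDP-15, so that a drop back to the control level, which lies 0.50 below TDP-PBS, was outside both intervals.

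**Figure D3:**
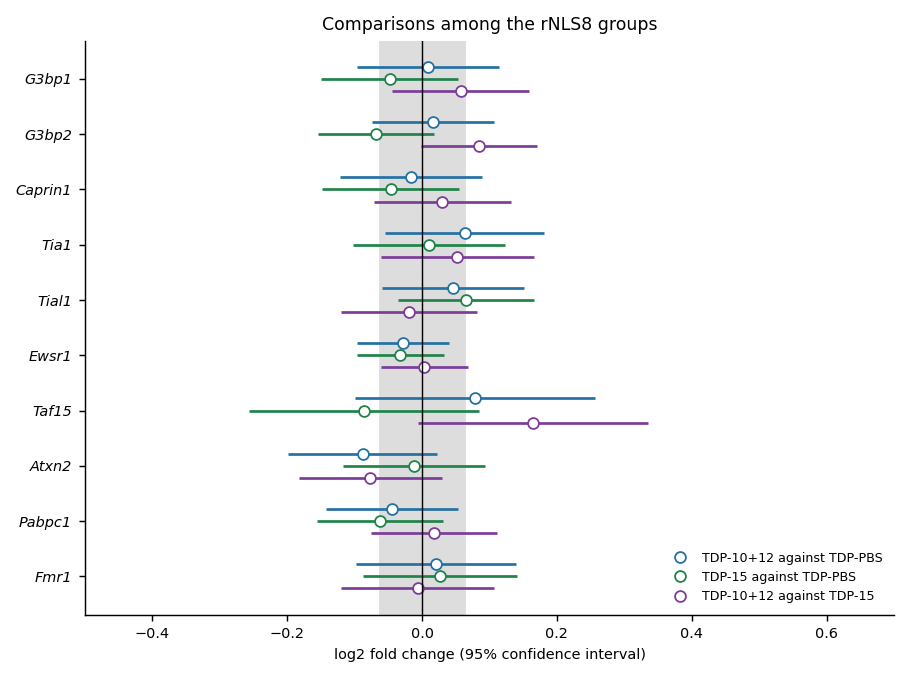
Log2 difference of each gene between the rNLS8 groups, with 95% confidence intervals from the edgeR fit and a grey band from the 25th to the 75th percentile of all genes. The interval of each gene includes 0 in all 3 comparisons.

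Sex was tested over all 49 mice, 25 females and 24 males. Between males and females, 0 of the 10 genes passed and 0 had an unadjusted p under 0.05 in edgeR, where 0.0933% of all genes passed (17 genes), and DESeq2 called 0 members. For the difference of the genotype effect between the sexes, 0 members and 0% of all genes passed, and DESeq2 called 0 members too. Of the 10 genes, 1 had an unadjusted p under 0.05, namely G3bp1, with a log2 change in rNLS8 of -0.16 in females and 0.02 in males (difference 0.18, SE 0.0681, p = 0.0122 in the quasi-likelihood test of edgeR, adjusted p = 0.999).

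The balance between paralogs was asked through the log2 ratio of their counts in each mouse, which does not depend on scaling. Ewsr1 counts exceeded Taf15 counts by a log2 ratio of 3.61 ± 0.22 in ctrl-PBS (SD, n = 17) and 3.87 ± 0.16 in TDP-15 (n = 12), a difference of 0.26 that passed a two-sided permutation test of 100000 draws (p = 0.00171, adjusted p = 0.0154 over the 9 tests against ctrl-PBS), with 4 of 12 mice above every control. It was 3.83 ± 0.25 in TDP-PBS (adjusted p = 0.0847, permutation test) and 3.72 ± 0.23 in TDP-10+12 (adjusted p = 0.261, permutation test). The Tia1 to Tial1 ratio was 0.29 ± 0.10 in ctrl-PBS, 0.37 ± 0.11 in TDP-PBS, 0.40 ± 0.17 in TDP-10+12 and 0.32 ± 0.08 in TDP-15. The G3bp1 to G3bp2 ratio was -2.13 ± 0.08, -2.06 ± 0.16, -2.06 ± 0.14 and -2.04 ± 0.14 in the same order. None of these 6 differences passed (adjusted p of 0.0847 to 0.334, permutation tests), and neither did any of 6 tests against TDP-PBS (0.884 to 0.964). With group medians in place of means, 4 of the 6 passed a permutation test, namely Tia1 to Tial1 in TDP-PBS (0.11, adjusted p = 0.0339) and TDP-10+12 (0.16, adjusted p = 0.0213) and G3bp1 to G3bp2 in TDP-10+12 (0.11, adjusted p = 0.0466) and TDP-15 (0.11, adjusted p = 0.0339). The median Ewsr1 to Taf15 ratio then passed in TDP-PBS as well (0.22, adjusted p = 0.0466, permutation test). Within 1 sex, the Ewsr1 to Taf15 difference in TDP-15 was 0.24 in females and 0.26 in males and passed in neither (adjusted p = 0.137 and 0.226, exact permutation tests).

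Whether the genes varied together among mice was asked on log2 CPM after the mean of each group was subtracted, over the 49 mice. Caprin1 and Fmr1 varied together (Pearson r = 0.72, Spearman rho = 0.71, permutation p = 1e-05 for both, the smallest that 100000 draws can give, adjusted p = 6e-05 and 3e-05 over 6 pairs), and r was 0.68 without the 2 mice farthest from the median of Caprin1. Tia1 and Tial1 had r = 0.58 (rho = 0.61, permutation p = 3e-05 and 1e-05, adjusted p = 9e-05 and 3e-05) and 0.58 without 2 mice. G3bp1 and Caprin1 had r = 0.48 (rho = 0.38, permutation p = 0.00095 and 0.00916, adjusted p = 0.0019 and 0.0183) and 0.35 without 2 mice, while Atxn2 and Pabpc1 had r = 0.37 (rho = 0.34, permutation p = 0.0121 and 0.0215, adjusted p = 0.0181 and 0.0322) and 0.33 without 2 mice. Ewsr1 and Taf15 did not vary together (r = -0.09, rho = -0.13, permutation p = 0.566 and 0.376, both also the adjusted p, and r = -0.17 without 2 mice). G3bp1 and G3bp2 had r = 0.30 (rho = 0.25, permutation p = 0.035 and 0.0877, adjusted p = 0.042 and 0.105) and 0.23 without 2 mice, so that this relation rested in part on those mice, and with sex means subtracted as well r was 0.25 (permutation p = 0.0912, adjusted p = 0.109). Within ctrl-PBS alone the G3bp1 and G3bp2 correlation was 0.77 (rho = 0.64, permutation p = 0.00025 and 0.00678, adjusted p = 0.0015 and 0.018, n = 17) and 0.60 without 2 mice, and within the 32 rNLS8 mice it was 0.06 (rho = 0.01, permutation p = 0.762 and 0.952) and -0.10 without 2 mice, a difference that was not tested. G3bp1 and Caprin1 had r = 0.68 in ctrl-PBS (permutation p = 0.00149, adjusted p = 0.00447) and 0.40 without 2 mice, and r = 0.35 in rNLS8, which did not pass (permutation p = 0.0629, adjusted p = 0.0943), and 0.13 without 2 mice, so that this relation also rested in part on those mice. Atxn2 and Pabpc1 had r = 0.25 in ctrl-PBS, which did not pass (permutation p = 0.323, adjusted p = 0.387), and r = 0.42 in rNLS8 (permutation p = 0.0208, adjusted p = 0.0417), where rho did not pass (0.34, adjusted p = 0.126 by permutation). Caprin1 and Fmr1 passed in ctrl-PBS (r = 0.65) and in rNLS8 (0.76), as did Tia1 and Tial1 (0.65 and 0.55). Over all 45 pairs of the 10 genes, r ran from -0.36 to 0.72 with a median of 0.10. The 95th percentile of r with 9916 genes of at least 10 CPM was 0.506 for Fmr1 and 0.482 for Caprin1. It was 0.456 for Tia1, 0.463 for Tial1, 0.367 for G3bp1, 0.472 for G3bp2, 0.527 for Atxn2 and 0.374 for Pabpc1. Over the 49 mice, Caprin1 with Fmr1 and Tia1 with Tial1 exceeded both of their percentiles, and G3bp1 with Caprin1 only that of G3bp1. Atxn2 with Pabpc1 and G3bp1 with G3bp2 exceeded neither.

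**Figure D4:**
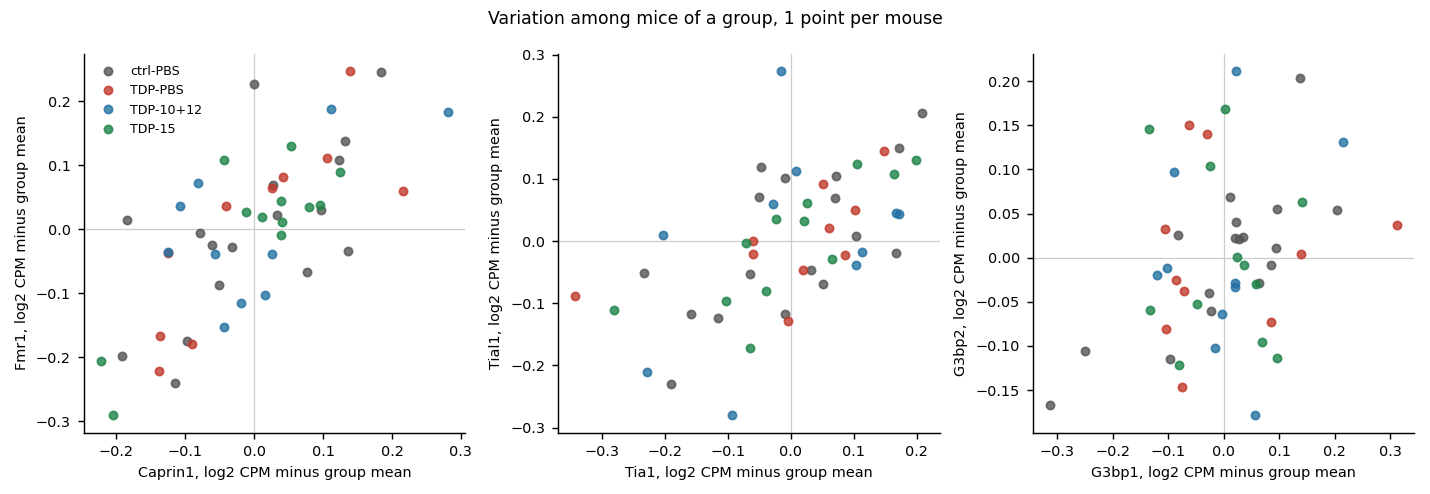
Log2 CPM minus the group mean of 1 gene against another in each of the 49 mice, coloured by group, for Caprin1 and Fmr1, Tia1 and Tial1, and G3bp1 and G3bp2. Points follow a common diagonal for Caprin1 and Fmr1 (r = 0.72) and scatter more widely for G3bp1 and G3bp2 (r = 0.30).

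Genes with the most similar course over the 49 mice, among 9916 genes with a mean of at least 10 CPM, are given as a description of the same centred values. For Atxn2 they were Syn1 (r = 0.82), a synaptic vesicle gene, Ubap2l (0.81), a stress granule factor, and Mark2 (0.80), a microtubule-affinity kinase. Ubap2l rose in TDP-PBS as Atxn2 did (log2 fold change 0.14), whereas Syn1 fell (-0.33). For Caprin1 they were the nuclear exporter Xpo1 (0.79), Chordc1 (0.78) and the ER chaperone Hsp90b1 (0.78), and for G3bp1 Manf (0.74), Hspa5 (0.70), which encodes the ER chaperone BiP, and Pdia4 (0.67). For G3bp2 they were Cntnap5a, Rab3c and Dok6 (each 0.76), for Fmr1 Zfp638 (0.76), Mtmr6 (0.75) and Crk (0.74), and for Tia1 Ogt (0.77), Scn3a (0.76) and Eml5 (0.72). For Tial1 they were Ttc14 (0.76), Nus1 (0.74) and Prpf4b (0.70), of which Ttc14 fell (-0.45) and Nus1 rose (0.43) in TDP-PBS. For Ewsr1 they were Kcnt1 (0.70), Nudt21 (0.64) and Srrm1 (0.64), and for Taf15, with the weakest likeness, Eif3j2 (0.59), Pnp (0.58) and Nucks1 (0.57). For Pabpc1 they were Sipa1 (0.68), the receptor kinase Axl (0.65) and Inpp5d (0.65), a phosphatase of microglia and other myeloid cells, and all 3 rose in TDP-PBS (log2 fold changes of 0.22, 0.44 and 0.40). All genes of a mouse were counted in the same library, and the part of cell makeup in these correlations was not tested.

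Other genes of the same biology were taken from lists fixed for this work. Of 30 further stress granule proteins, 12 rose and 4 fell in TDP-PBS, with a median log2 fold change of 0.07, against 21.9% and 21.6% of all genes. Fxr2, a paralog of Fmr1, rose from 135.2 CPM to 184.3 CPM (log2 fold change 0.45), and the mRNA-decay factor Zfp36 rose from 7.03 to 9.91 CPM (0.50). Stau2, which carries mRNA into dendrites, fell from 111.8 to 85.5 CPM (-0.39), and Caprin2, a paralog of Caprin1, from 9.93 to 7.33 CPM (-0.44), a call lost without the libraries high in neighbouring-tissue markers (-0.30, adjusted p = 0.113). In TDP-10+12, 10 rose and 4 fell (20.8% and 20.0% of all genes), and in TDP-15, 13 rose and 5 fell (23.6% and 23.2% of all genes).

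Processing bodies hold decay factors and exchange mRNA with stress granules. Of 15 such genes, 4 rose and 1 fell in TDP-PBS (21.9% and 21.6% of all genes), 3 rose and 2 fell in TDP-10+12 (20.8% and 20.0%), and 5 rose and 2 fell in TDP-15 (23.6% and 23.2%). Patl1, a decapping activator, rose from 37.0 to 50.2 CPM (log2 fold change 0.44), and Lsm14b fell from 69.8 to 54.6 CPM (-0.36). Edc3, an enhancer of decapping, rose by 0.12, which DESeq2 did not call (adjusted p = 0.056). Among 14 genes for eIF2, its kinases, its exchange factor and its phosphatase subunits, 6 rose and 0 fell in TDP-PBS, 4 rose and 1 fell in TDP-10+12, and 5 rose and 1 fell in TDP-15, against the same shares over all genes (21.9% and 21.6%, 20.8% and 20.0%, 23.6% and 23.2%). Eif2ak2, the double-stranded RNA kinase PKR and an interferon-induced gene, rose from 2.86 to 11.04 CPM (log2 fold change 1.95), and Ppp1r15a, the stress-induced phosphatase subunit GADD34, rose from 18.2 to 22.7 CPM (0.32). With library totals alone as the scaling, 7, 7 and 10 processing body genes were higher and 1 was lower in TDP-PBS, TDP-10+12 and TDP-15, and in the eIF2 list 8 and 10 were higher and 0 lower in TDP-10+12 and TDP-15. Under that scaling 5378, 5422 and 6108 of all 18220 genes were higher in the 3 groups, or 65.9, 69.0 and 68.6% of all calls.

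Pabpc1 mRNA belongs to the class with a terminal oligopyrimidine (TOP) start, whose translation follows mTOR, and 14 TOP genes outside the ribosome were examined with it. Of these, 7 rose and 1 fell in TDP-PBS and TDP-10+12, and 7 rose and 2 fell in TDP-15, with median log2 fold changes of 0.15, 0.14 and 0.13, where 21.9, 20.8 and 23.6% of all genes rose and 21.6, 20.0 and 23.2% fell. Start sites of 3 of them, which begin with C and at least 4 pyrimidines at the annotated start, are shown to illustrate the element, with 10 bases before and 20 from the start and the pyrimidine run in capitals.
Eif3f, chr7:108934405-108934434, plus strand: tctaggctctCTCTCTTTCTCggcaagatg
Rack1, chr11:48800350-48800379, plus strand: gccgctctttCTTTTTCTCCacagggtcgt
Nap1l1, chr10:111473217-111473246, plus strand: gctctcgggtCTTTTTTagcgccatctgct

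The element was present at the annotated start of these 3 among the 9 TOP genes with a window, in 2.51% of all windows and in 0 of the 14 member windows, among which Pabpc1 has none. Eif3f, a subunit of initiation factor 3, rose from 99.9 to 133.8 CPM in TDP-PBS (log2 fold change 0.42) and Eif3h from 95.4 CPM by 0.37, while Nap1l1, a histone chaperone with the same kind of start, fell from 119.9 CPM by 0.41 on the log2 scale. Eif3f and Nap1l1, both shown above with this start, thus moved in opposite directions, while most changed genes of the list rose. A part of the start in these changes was not tested. Of 11 paralogs of the members, 8 passed the filter, and 3 rose and 1 fell in each rNLS8 group, against the same shares over all genes. Besides Fxr2 they included Pabpc4, the other main cytoplasmic poly(A)-binding protein in the list, which rose from 30.9 to 40.4 CPM in TDP-PBS (log2 fold change 0.39). Several paralogs are also in the stress granule list, and neuronal and microglial markers moved with these groups as given above.

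**Figure D5:**
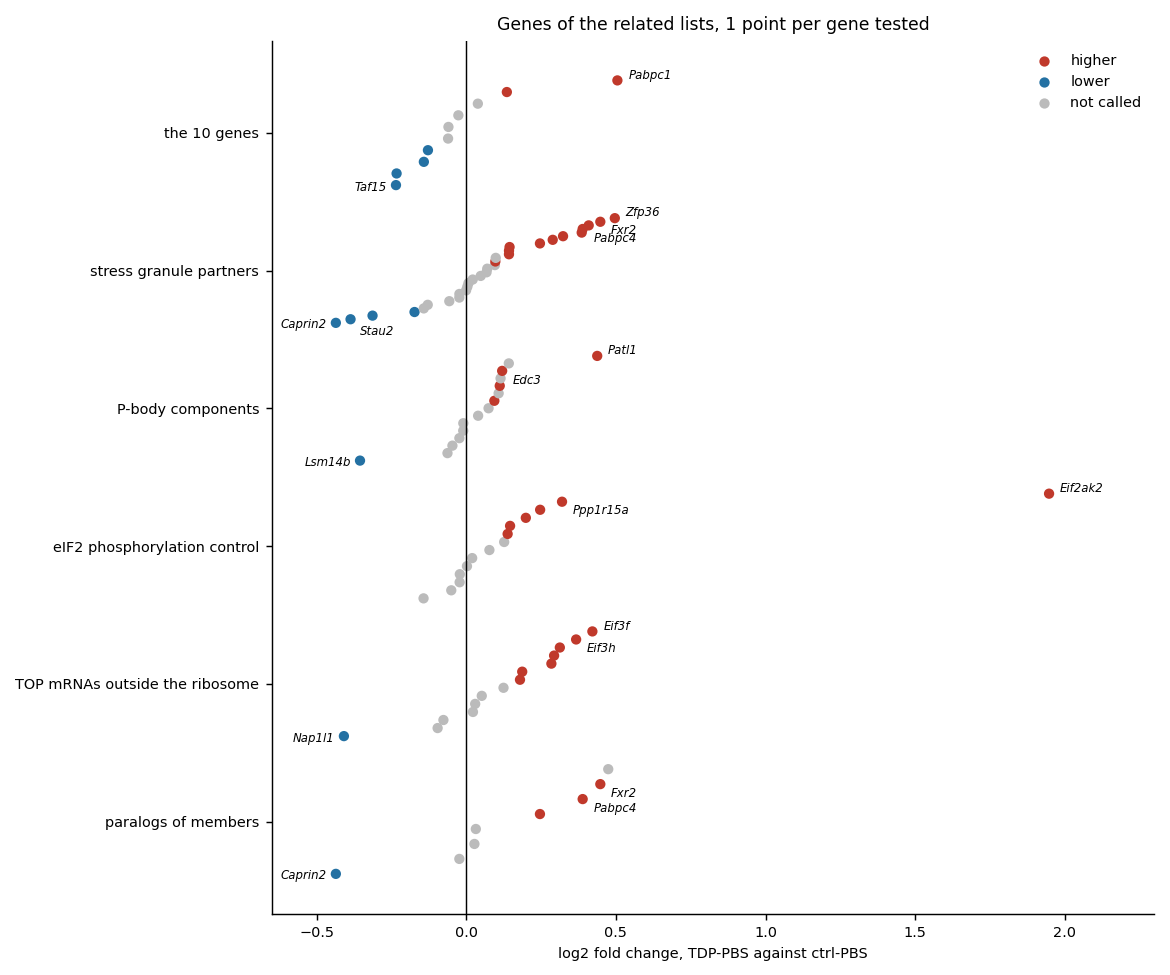
Log2 fold change of TDP-PBS against ctrl-PBS for each gene of the 5 related lists and the 10 members, 1 point per gene, in red where the gene rose, blue where it fell and grey where it did not pass the threshold. Eif2ak2 stands apart at 1.95, and the medians of the lists lie between -0.06 and 0.15.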

How the data were processed

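The neocortex of 49 mice was sequenced (30 mg of tissue, 200 ng of RNA, paired reads of 100 bp). The authors deposited raw counts per gene, and the submitters' processing notes name HISAT, HISAT2, Bowtie2, RSEM, Bowtie and mm10, without roles. The counting tool, its annotation and whether it used strand are not given in the sources used here, so reads of overlapping antisense genes cannot be told apart. Groups came from the labels. From the counts, genes were filtered with filterByExpr (minimum count 10, by group), scaled by TMM and tested in 1 edgeR quasi-likelihood fit over all mice without covariates (edgeR 4.0.16, limma 3.58.1, R 4.3.3), with Benjamini-Hochberg adjustment over 18220 genes and a threshold of 0.05. Standard errors and 95% confidence intervals were derived from the F statistics. CPM are counts relative to the TMM-scaled library size. Paralog ratios (0.5 added to each count) and correlations were tested by permutation (100000 draws, or all permutations where a group had fewer than 10 mice). Levels per kb used GENCODE M21 exon unions, and positions and promoters RefSeq on GRCm38.p6. On simulated data with log2 changes of -1, -0.5, 0.5 and 1, the edgeR test recovered 50, 45, 43 and 50 of 50 genes each. Smaller changes, such as those of the members other than Pabpc1, were not simulated. No library matched another of its group within sampling noise, and 0 libraries contradicted their labelled sex.

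The members and lists were chosen with earlier results of these data known. Named were the members, for each list the up to 2 largest rises and falls in TDP-PBS past the threshold, the 3 genes most like each member, and Tardbp and Gfap as checks. Marker lists of cell types and neighbouring tissues were summed per mouse. Alternatives were DESeq2 1.42.0, limma-voom, other scalings and filters, sex, surrogate variables (sva 3.50.0), 2-group fits, leaving out each mouse, and, added after seeing the data, leaving out 13 libraries whose summed choroid plexus, olfactory bulb or striatal markers exceeded the median 5-fold. At 17775738 to 21033608 counts per library, 3 counts correspond to 0.143 to 0.169 CPM, below all values of the members. 1 related gene is not reported here.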

Additional observations from a re-analysis of the deposited data

Results flagged for a closer look

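In groups of 10 mice, the highest or lowest mouse was compared with its nearest neighbour, and a gap beyond Dixon's 95% critical value (0.466 of the group's range for 10 mice) is given here. In each of the 26 groups of values tested, chance alone gives such a gap about 1 time in 20 if values are normally distributed. Some such gaps are therefore expected by chance over the 26 groups. G3bp1 reached 46.5 CPM in TDP-10+12 mouse 47, with the next mouse at 41.6 CPM. Tia1 was at 42.1 CPM in TDP-PBS mouse 124, with the next mouse at 51.2 CPM, and the log2 ratio of Tia1 to Tial1 was also lowest in that mouse, at 0.119 against 0.313 in the next. Without mouse 124 the fall of Tia1 in TDP-PBS did not pass the threshold (edgeR, adjusted p = 0.124). Ewsr1 was at 148.0 CPM in TDP-PBS mouse 26, with the next at 168.4 CPM. Taf15 reached 18.1 CPM in TDP-10+12 mouse 301, with the next at 13.9 CPM, and without that mouse Taf15 fell in TDP-10+12 (edgeR, log2 fold change -0.22, adjusted p = 0.0183). Pabpc1 reached 302.5 CPM in TDP-PBS mouse 82, with the next at 267.4 CPM, and its rise in TDP-PBS was between 0.48 and 0.53 on the log2 scale over all 49 refits without 1 mouse.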

How the results depend on the processing

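With library totals alone as the scaling, 3 members changed in TDP-PBS (2 higher, 1 lower) in place of 6, 2 in TDP-10+12 in place of 3, and 4 in TDP-15 in place of 7. Without the 13 libraries high in markers of neighbouring tissue, 4, 2 and 4 changed. Of all genes tested, 43.5, 40.8 and 46.9% were called in these 3 comparisons in the main fit. The shares were 44.8, 43.1 and 48.9% with library totals and 38.9, 32.8 and 40.1% without the 13 libraries. Leaving out each mouse gave 5 to 6 changed members in TDP-PBS, 2 to 4 in TDP-10+12, 5 to 7 in TDP-15 and 0 to 0 in the comparisons within rNLS8. These refits also repeated the filter, the scaling and the shared spread, so that their shifts are not those of the mouse left out alone. Of the paralog ratios against ctrl-PBS, 1 passed, 6 passed when medians were compared, 0 in females and 0 in males, which have fewer mice. Of 660 values of single members under the alternatives, 638 stayed on their side of the threshold, 20 called values no longer passed and 2 newly passed. No called value reversed, whereas 16 values that were not called, counted among the 638, changed sign. The rises of Pabpc1 and Atxn2 and the fall of Tial1 in TDP-PBS passed under every alternative run. Atxn2 came close to the threshold, with an adjusted p of up to 0.0492 in the edgeR refits without 1 mouse. No paired analysis was possible, because the labels do not give the litter of a mouse, and litter was not in any model. The lowest count level, that of Taf15, was 9.16 CPM, well above the level of 3 counts (0.169 CPM or less). Counting error and the spread between mice were not separated.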
